A study of Mus musculus with 12 samples.

Results

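Protein phosphatase 2A (PP2A) is a serine/threonine phosphatase built from a scaffold subunit, a catalytic subunit and 1 regulatory B subunit, and the B subunit largely sets where the enzyme sits and what it dephosphorylates. The 9 B subunit genes described here were Ppp2r3a and Ppp2r3c of the B'' family, Ppp2r5a, Ppp2r5b, Ppp2r5c, Ppp2r5d and Ppp2r5e of the B' or B56 family, and Ppp2r2a and Ppp2r2d of the B or B55 family. They were taken by exact match of the gene symbol, and all 9 were found among the 24340 gene rows of each deposited gene table and tested by the authors in both comparisons. PR72, named in the study title, is the shorter protein of Ppp2r3a. The title places it in the B' class, whereas the usual family naming puts it in B''. In heart muscle PP2A opposes kinases such as protein kinase A at calcium channels, calcium release channels and myofilament proteins.

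RNA-seq had been performed on mouse cardiac samples labelled EGFR KO or WT, with 12 samples in 4 groups of 3. The groups used here were 9wkKO and 7wkKO, both labelled EGFR KO, at 9 and 7 weeks of age, and 7wkWT, labelled WT, at 7 weeks. EGFR is the epidermal growth factor receptor, and the design text describes the deletion as cardiac. No source used here names the promoter or Cre line behind it, the deleted part of the gene, or the strain and sex of the mice. The 9wkWT samples were not analysed here, so age and genotype cannot be told apart in any difference between 9wkKO and 7wkWT. Differences between 9wkKO and 7wkKO likewise have no WT reference at 9 weeks. A change with age that WT mice share cannot be told apart from one that depends on the deletion. Each deposited table compared 2 groups and gave 1 FPKM value (fragments per kilobase of transcript scaled to the mapped fragments of the library) per group, with none per sample, so it is not known whether samples of different groups overlapped in level.

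Every FPKM, p and q below is from the authors' deposited tables. Calls below mean a deposited Cuffdiff q below 0.05. Log2 folds were computed from the 2 FPKM values, first-named group over second, and their errors are those implied by the deposited test statistic, given with a 95% interval. The deposited p-values were smaller than that statistic alone would give: the normal deviate of the p was 1.74 times the statistic in the median gene. Errors taken from the p are therefore smaller (0.15 against 0.26 for Ppp2r3a at 7 weeks). Errors and intervals below are from the statistic, the wider reading, unless the p is named as their source.

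Ppp2r3a lies on the minus strand of chromosome 9 (mm10, locus 101104989 to 101251832 in the files). The authors' isoform tables list a product named PR72 in the literature (NM_172144) and a longer one named PR130 (NM_001161362). In the GENCODE M21 models of these transcripts PR72 has 13 exons and 530 codons, and PR130 has 14 exons and 1150 codons. They share 486 codons at the carboxyl end, which hold the calcium-binding EF hands known in this family. PR72 adds 44 codons of its own at the amino end and PR130 adds 664. The PR72 transcript starts 52722 bases downstream of the PR130 start, inside a PR130 intron. PR72 is told from PR130 by 443 bases that only it has, against 2768 bases found only in PR130.

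**Figure D1:**
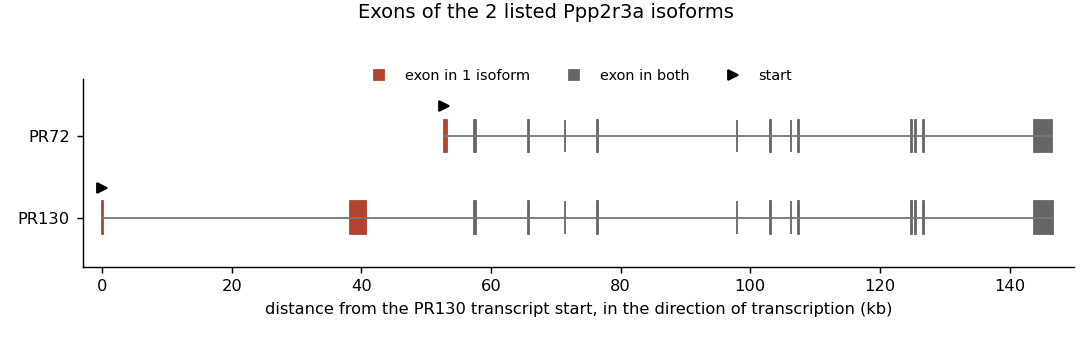
Exons of PR72 (top) and PR130 (bottom) drawn to scale against the distance in kb from the PR130 start, with exons of 1 isoform in red, exons of both in grey, outlines that widen the shortest exons, and a triangle at each start. The red exons are the first exon of PR72 and the first pair of PR130. All 12 exons after them are in both, though the last one ends further downstream in PR130.

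Coding bases that differ are shown as part of the sequence that tells these isoforms apart. Of the 443 bases only in PR72, 132 are coding, and of the 2768 only in PR130, 1992 are. The last exon also ends further downstream in PR130. The first line is all of the coding sequence that PR72 does not share (chr9:101198631-101198762, minus strand, GRCm38), and the other is an equal length from the start of the PR130 coding sequence (chr9:101212991-101213122). Both are from GENCODE M21 transcripts, with the start codon in capitals.
PR72 coding start: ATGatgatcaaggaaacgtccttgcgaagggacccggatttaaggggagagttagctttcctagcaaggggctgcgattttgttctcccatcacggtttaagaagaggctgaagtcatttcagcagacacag
PR130 coding start: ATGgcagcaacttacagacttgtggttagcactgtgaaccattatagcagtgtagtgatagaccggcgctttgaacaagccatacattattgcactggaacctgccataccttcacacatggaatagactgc

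The isoforms have separate annotated starts, and the 250 bases before each RefSeq transcript start (GRCm38.p6, minus strand) are shown for that reason. They are called promoters here by position only, and promoter activity was not measured. The PR130 window is chr9:101251833-101252082 and the PR72 window is chr9:101199074-101199323. Capitals mark matches on either strand to the GC box GGGCGG, the E-box CANNTG or the GATA sequence GATAA. The first GC box in the PR130 window overlaps its E-box.
PR72 promoter: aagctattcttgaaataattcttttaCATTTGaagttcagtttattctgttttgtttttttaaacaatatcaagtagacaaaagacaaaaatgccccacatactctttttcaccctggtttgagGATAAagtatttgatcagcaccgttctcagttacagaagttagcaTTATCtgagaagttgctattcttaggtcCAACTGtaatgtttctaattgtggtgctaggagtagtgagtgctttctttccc
PR130 promoter: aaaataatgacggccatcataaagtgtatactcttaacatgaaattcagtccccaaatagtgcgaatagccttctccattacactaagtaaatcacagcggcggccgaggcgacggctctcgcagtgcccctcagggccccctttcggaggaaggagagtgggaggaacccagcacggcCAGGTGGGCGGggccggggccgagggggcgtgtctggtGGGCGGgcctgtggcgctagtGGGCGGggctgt

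The PR72 window was AT-rich, with 34.0% G and C and 1 CpG, against 60.4% and 17 CpGs in the PR130 window. The median over 32851 RefSeq promoter windows of this length was 52.4% and 6 CpGs, and 4.25% of them had a G and C content at or below that of PR72. The PR72 window held 2 E-boxes, at -224 and -53 from the start, and 2 GATA sequences, at -126 and -81, and no GC box. The PR130 window held 3 GC boxes, 1 E-box and no GATA sequence. Of all windows 66.2% held an E-box, 22.6% the GATA sequence and 32.7% a GC box, so matches of each kind were common. Neither window held the CCAAT box CCAAT (33.8% of windows), the TATA box TATAAA (12.4%), the MCAT element CATTCC (12.6%) or a MEF2 site (2.92%). These are matches of letters, and binding was not measured.

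Ppp2r3a had the highest level of the 9 genes at 7 weeks. The authors' deposited table listed it at 65.2 FPKM in 7wkKO and 72.5 FPKM in 7wkWT, which were 25.5% and 27.6% of the summed FPKM of the 9 genes. It was the gene with the lowest log2 fold of the 9 in each comparison, and it was called changed in neither. The log2 fold at 7 weeks was -0.15 with an implied error of 0.26 (95% interval -0.67 to 0.37, deposited Cuffdiff q = 0.833 in the authors' deposited table). At 7 weeks 4501 of 11987 tested genes had a smaller deposited p.

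In 9wkKO it was listed at 49.7 FPKM, against 65.7 FPKM in 7wkKO in the same deposited table. The log2 fold was -0.40 with an implied error of 0.25, and its interval of -0.89 to 0.08 held 0. The error taken from the deposited p was 0.14, and the interval of -0.67 to -0.13 from it left 0 out. The deposited p in the authors' table was 0.0038 and the Cuffdiff q 0.0723, whereas the statistic read as a normal deviate gave an unadjusted p of 0.104. Of 12046 tested genes 632 had a smaller deposited p, and 5.43% had a lower log2 fold. Among the 3212 genes listed at 20 FPKM or more in every group, 2.15% had a lower log2 fold in this comparison. Ppp2r3a was the only member with an unadjusted deposited p under 0.05 in either comparison.

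From 7 to 9 weeks PR72 had the lower log2 fold of the 2 isoforms, and at 7 weeks PR130 did. PR72 was listed at 44.5 FPKM in 9wkKO and 60.3 FPKM in 7wkKO in the authors' deposited table, a log2 fold of -0.44 with an implied error of 0.27 (95% interval -0.96 to 0.08, deposited Cuffdiff p = 0.00415, q = 0.108). The interval from the deposited p was -0.74 to -0.14, and the unadjusted p from the statistic was 0.1004. PR130 was listed at 5.21 FPKM in 9wkKO and 5.40 FPKM in 7wkKO, a log2 fold of -0.05 with an implied error of 0.74 (95% interval -1.49 to 1.39, q = 0.997 in the authors' deposited table). The PR130 interval holds the whole PR72 interval in that comparison, and the difference between the isoforms was not tested. At 7 weeks PR72 had 59.9 FPKM in 7wkKO and 66.3 FPKM in 7wkWT (log2 fold -0.15, q = 0.866 in the authors' deposited table). PR130 had 5.36 and 6.13 FPKM in the same groups of that table (log2 fold -0.19, q = 0.963).

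PR72 made up most of the summed isoform FPKM in every group. Its share was 89.5% in 9wkKO against 91.8% in 7wkKO in the deposited table of those groups, a change of -2.26 percentage points. At 7 weeks it was 91.8% in 7wkKO and 91.5% in 7wkWT, a change of 0.24 points. No deposited test covers shares. Among 1702 genes with several isoforms and a summed level of at least 10 FPKM in both 7-week groups, 90.4% had an isoform share change at least as large as that of Ppp2r3a. The value was 58.4% of 1706 genes from 7 to 9 weeks. In percentage points, the isoform shares of Ppp2r3a therefore differed less between groups than those of most such genes. These genes were not matched to Ppp2r3a in number of isoforms or in the share of the main one. The PR130 share, small in every group, was 10.5% in 9wkKO and 8.22% in 7wkKO.

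**Figure D2:**
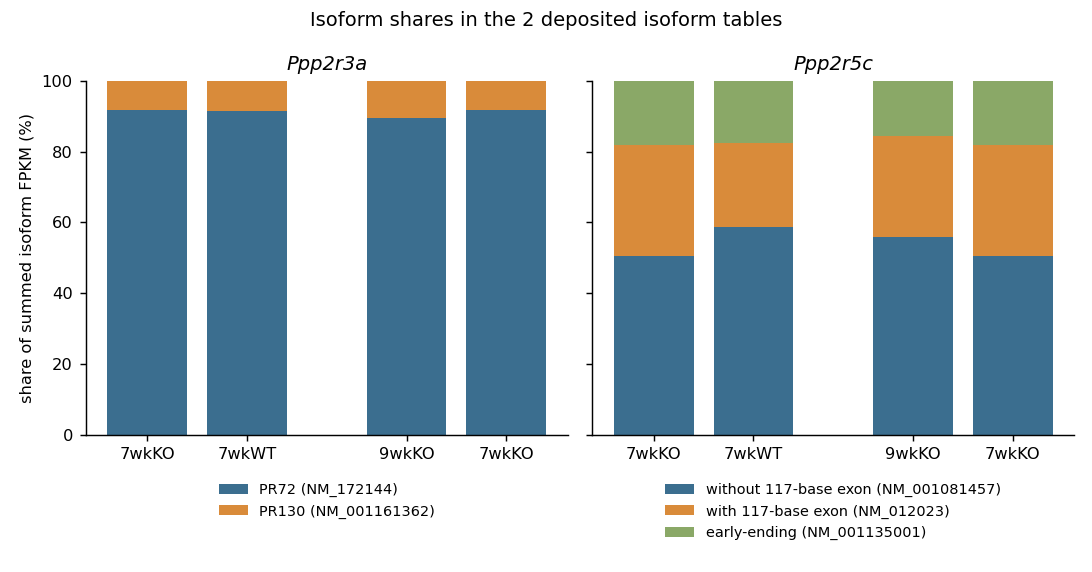
Share of summed isoform FPKM (%, 1 value per group) for each listed isoform of Ppp2r3a (left) and Ppp2r5c (right), with the 7wkKO and 7wkWT values of one deposited table beside the 9wkKO and 7wkKO values of the other, and NM_001081458, near 0, left out. PR72 holds between 89.5% and 91.8% of Ppp2r3a, while the Ppp2r5c isoform with the 117-base exon holds between 23.7% and 31.5%.

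Ppp2r3c, the other B'' gene among the 9, encodes G5PR, a subunit studied for its part in lymphocyte survival in mice. It had the lowest level of the 9 genes, 7.46 FPKM in 7wkKO and 7.83 FPKM in 7wkWT (log2 fold -0.07, q = 0.993 in the authors' deposited table), and 7.50 FPKM in 9wkKO against 7.52 FPKM in 7wkKO (log2 fold -0.00308, q = 0.998). Its implied errors were 1.08 and 1.04 on the log2 scale and gave wide intervals (-2.18 to 2.04 at 7 weeks). Its locus in the files (chromosome 12, 55280814 to 55492647) spanned 5 gene rows, among them Psma6, a proteasome subunit gene at 141 FPKM in 7wkKO and 153 FPKM in 7wkWT. It overlaps 1110008L16Rik on the opposite strand. The libraries were stranded per the labels, but no source used here says whether counting used the strand, so its level is uncertain.

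The B56 genes encode subunits that share a conserved core and bind targets through short linear motifs. Ppp2r5a encodes B56alpha, which is known in heart to bind ankyrin-B and to act on the sodium channel and the ryanodine receptor. Its level was second at 7 weeks, with 53.0 FPKM in 7wkKO and 57.5 FPKM in 7wkWT in the authors' deposited table (log2 fold -0.12, error 0.26, 95% interval -0.63 to 0.39, q = 0.890). In 9wkKO it had 61.6 FPKM, against 53.4 FPKM in 7wkKO (log2 fold 0.21, error 0.25, 95% interval -0.28 to 0.69, q = 0.640 in the authors' deposited table). Ppp2r5a thus stood above Ppp2r3a in 9wkKO and below it in the 7-week groups. The ratio of Ppp2r3a to Ppp2r5a FPKM was 0.808 in 9wkKO, 1.23 in 7wkKO and 1.26 in 7wkWT. Neither gene passed the threshold, and the change of their ratio was not tested, since the tables give no value per sample.

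Ppp2r5c encodes B56gamma, and 4 isoforms were listed. Its gene level was 38.3 FPKM in 7wkKO and 34.8 FPKM in 7wkWT in the authors' deposited table (log2 fold 0.14, error 0.26, q = 0.850), and 36.2 FPKM in 9wkKO against 38.6 FPKM in 7wkKO (log2 fold -0.09, error 0.24, q = 0.943). Single isoforms had log2 folds of up to 0.55, larger than that of the gene, and larger errors. NM_012023 has 524 codons and holds an exon of 117 bases, its exon 13 of 14, that is absent from NM_001081457, with 485 codons. The exon adds 39 codons in frame and is shown because it separates the 2 most abundant products (chr12:110574745-110574861, plus strand, GRCm38, from a GENCODE M21 transcript).
Ppp2r5c exon 13: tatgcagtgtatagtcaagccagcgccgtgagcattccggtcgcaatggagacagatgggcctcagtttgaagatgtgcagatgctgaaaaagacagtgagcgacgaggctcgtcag

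The isoform with this exon was listed at 12.1 FPKM in 7wkKO and 8.24 FPKM in 7wkWT in the authors' deposited table (log2 fold 0.55, error 0.67, 95% interval -0.76 to 1.85, q = 0.755). The isoform without it had 19.3 FPKM in 7wkKO and 20.5 FPKM in 7wkWT (log2 fold -0.08, error 0.42, q = 0.968 in the authors' deposited table). In shares, the isoform with the exon made up 31.5% in 7wkKO and 23.7% in 7wkWT, and the isoform without it 50.5% and 58.8%. From 7 to 9 weeks the share with the exon was 28.4% in 9wkKO and 31.5% in 7wkKO. The largest share change of the gene was 8.37 points at 7 weeks and 5.51 points from 7 to 9 weeks. In 42.5% of the 1702 genes at 7 weeks, and in 35.4% of the 1706 genes later, the largest share change was at least 5 points. Shifts of this size were therefore common in these tables, and 25.4% of genes had one at least as large as that of Ppp2r5c at 7 weeks. The isoform models also differ in length at the 3' end, and NM_012023 is told from the other 2 matched models only by the 117 bases shown. An early-ending product of 452 codons, NM_001135001, had 6.92 FPKM in 7wkKO and 6.08 FPKM in 7wkWT in the authors' deposited table (q = 0.962). The fourth, NM_001081458, was listed at less than 0.0001 FPKM in every group and was not tested by the authors.

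Ppp2r5b, whose product B56beta is best known from brain, had 21.0 FPKM in 7wkKO and 19.1 FPKM in 7wkWT in the authors' deposited table (log2 fold 0.14, error 0.25, q = 0.854). It had 20.7 FPKM in 9wkKO and 21.2 FPKM in 7wkKO (log2 fold -0.03, error 0.24, q = 0.994 in the authors' deposited table). Ppp2r5e, which encodes B56epsilon, was listed at 11.4 FPKM in 7wkKO and 10.3 FPKM in 7wkWT (log2 fold 0.15, error 0.25, q = 0.822 in the authors' deposited table). Its 9wkKO and 7wkKO values were 11.5 and 11.5 FPKM (log2 fold 0.00327, error 0.24, q = 0.997 in the authors' deposited table). Of the 9 genes Ppp2r5e had the highest log2 fold at 7 weeks, and its interval ran from -0.34 to 0.65.

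Ppp2r5d encodes B56delta, a subunit that protein kinase A phosphorylates in brain. The authors' deposited table listed it at 19.3 FPKM in 7wkKO and 18.9 FPKM in 7wkWT (log2 fold 0.03, error 0.49, q = 0.993), and its values were 18.9 FPKM in 9wkKO and 19.5 FPKM in 7wkKO (log2 fold -0.04, error 0.44, q = 0.994). Its locus in the files (chromosome 17, 46674551 to 46705002) held 3 gene rows, the others being Klhdc3 and Mea1. Ppp2r5d and Ppp2r3c were the least precisely measured members.

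The other 7 members had errors typical of genes at their level. At 7 weeks they ran from 0.25 to 0.26, and the median was 0.26 over the 4191 tested genes within the members' range of levels whose locus held 1 gene row. In 22.0% of the 1167 genes whose locus held several gene rows, and in 0.501% of the others, the error exceeded 0.4. From 7 to 9 weeks these values were 19.8% of 1144 genes and 0.389% of 4108. Sharing a locus did not always go with a large error: Ppp2r5a and Ppp2r5b each shared theirs with 1 other row, Tmem206 at 1.99 FPKM in 7wkKO and Gpha2 listed at 0, and had errors of 0.26 and 0.25.

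**Figure D3:**
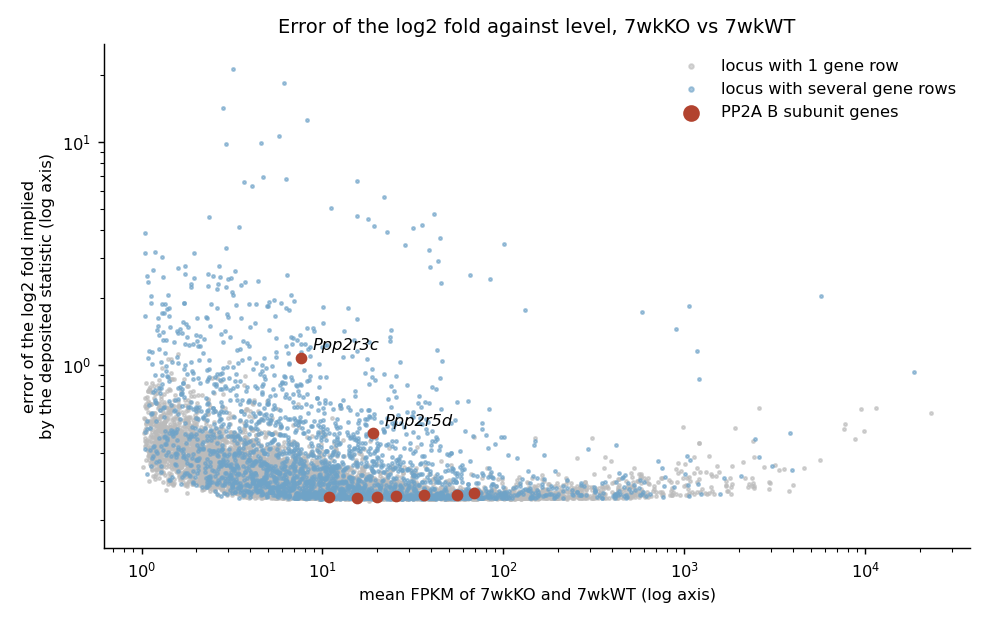
Error of the log2 fold implied by the deposited statistic (log axis) against the mean FPKM of 7wkKO and 7wkWT (log axis) for tested genes at 1 FPKM or more in both groups, with loci of 1 gene row in grey, loci of several in blue and the 9 B subunit genes in red. Ppp2r3c, at 1.08, and Ppp2r5d, at 0.49, lie above the other 7 genes, which sit along the lower edge.

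The B55 genes encode subunits that act on mitotic and growth-signalling substrates. Ppp2r2d, whose product B55delta is the one inhibited by Ensa and Arpp19 at mitotic entry in frog eggs, had 25.4 FPKM in 7wkKO and 25.3 FPKM in 7wkWT in the authors' deposited table (log2 fold 0.0033, error 0.26, q = 0.997). Its values were 23.2 FPKM in 9wkKO and 25.6 FPKM in 7wkKO (log2 fold -0.14, error 0.24, q = 0.872 in the authors' deposited table). Ppp2r2a, encoding the widely expressed B55alpha, had 15.1 FPKM in 7wkKO and 16.1 FPKM in 7wkWT (log2 fold -0.10, error 0.25, q = 0.922 in the authors' deposited table). From 7 to 9 weeks it was listed at 16.2 FPKM in 9wkKO and 15.2 FPKM in 7wkKO (log2 fold 0.09, error 0.24, q = 0.940 in the authors' deposited table). Of its 2 listed isoforms 1, NM_028032, carried 100% of the level, to rounding, in every group.

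**Figure D4:**
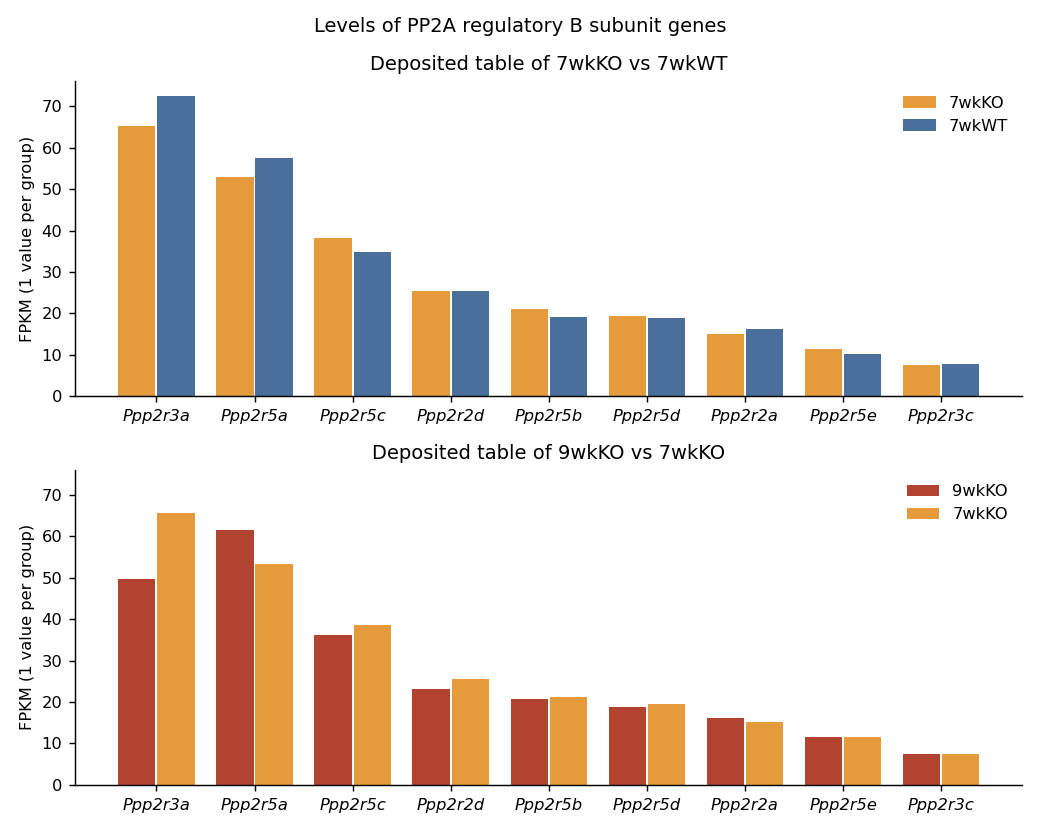
FPKM (1 value per group, from 0) of the 9 genes in 7wkKO and 7wkWT (top) and in 9wkKO and 7wkKO (bottom), in the order of their level in 7wkWT. Ppp2r3a is first in the 7-week groups, at 65.2 and 72.5 FPKM, and Ppp2r5a is first in 9wkKO, at 61.6 FPKM.

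The order of the levels was Ppp2r3a, Ppp2r5a, Ppp2r5c, Ppp2r2d, Ppp2r5b, Ppp2r5d, Ppp2r2a, Ppp2r5e and Ppp2r3c in 7wkKO and in 7wkWT. In 9wkKO it was the same except that Ppp2r5a and Ppp2r3a changed places. FPKM are scaled to length, so genes can be ranked, but with no spread over samples it cannot be said which neighbours differ. Ppp2r5b and Ppp2r5d were closest in 7wkWT, at 19.1 and 18.9 FPKM. The highest level was 8.20 times the lowest in 9wkKO, 8.74 times in 7wkKO and 9.25 times in 7wkWT. The summed FPKM of the 9 genes was 246 in 9wkKO, against 258 in 7wkKO in the same table, and 256 in 7wkKO against 262 in 7wkWT.

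At 7 weeks 0 of the 9 genes passed the deposited Cuffdiff threshold in the authors' deposited table, where 2.37% of all tested genes were called, and 0 had an unadjusted p under 0.05, where 11.3% of all tested genes did. Of the 9, 5 had a log2 fold above 0 and 4 below, where 50.1% of all tested genes lay below 0, and their median log2 fold was 0.0033, with -0.000613 over all tested genes. From 7 to 9 weeks 0 of 9 passed, where 4.66% of all tested genes were called, and 1, Ppp2r3a, had an unadjusted p under 0.05, where 12.9% did. In that comparison 3 were above 0 and 6 below, where 46.9% of all tested genes lay below 0, with a median of -0.03, and 0.01 over all tested genes. Among the 12 tested isoforms 0 were called in either comparison (1.42% of all isoforms called at 7 weeks and 2.93% later). Unadjusted p-values under 0.05 were found for 0 isoforms at 7 weeks and for 1 isoform, PR72, from 7 to 9 weeks (9.3% and 9.89% of all isoforms). With p taken from the statistic alone and adjusted over all tested genes, 0 of 9 were called in both comparisons, where only 0.117% of all tested genes were called at 7 weeks and 0.573% later. At a deposited q below 0.1, 0 of 9 were called at 7 weeks (3.59% of all tested genes) and 1 of 9, Ppp2r3a, from 7 to 9 weeks (6.0%). The comparisons share the 7wkKO samples, so they are not independent.

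**Figure D5:**
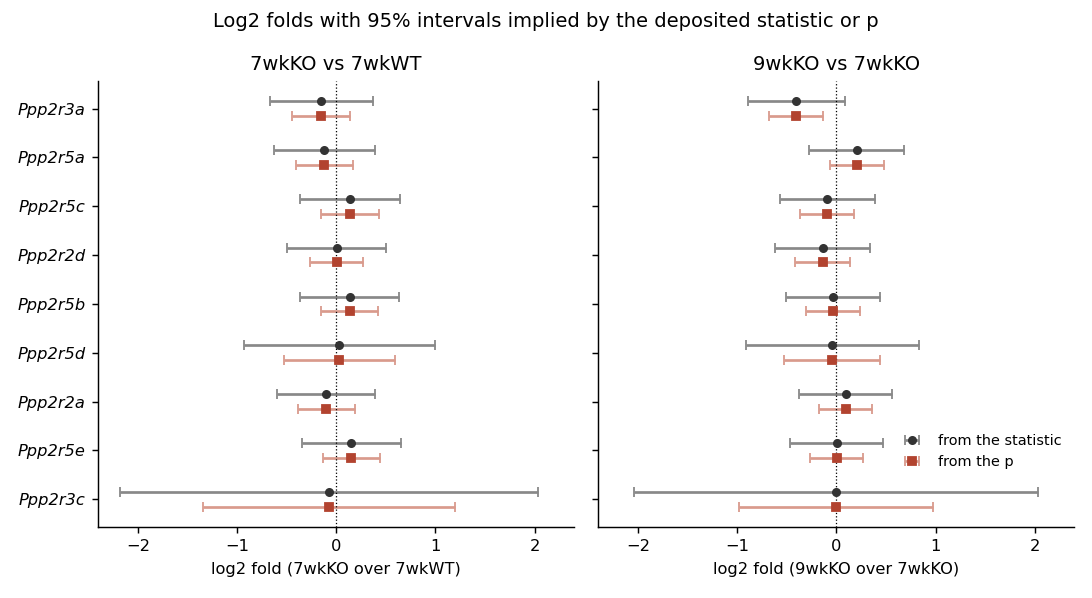
Log2 folds of the 9 genes for 7wkKO over 7wkWT (left) and 9wkKO over 7wkKO (right), with 95% intervals implied by the deposited statistic (grey, circles) or by the deposited p (red, squares) and a dotted line at 0. All intervals from the statistic hold 0, and of those from the p the one of Ppp2r3a from 7 to 9 weeks, -0.67 to -0.13, leaves it out.

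Adding both log2 folds gives the level in 9wkKO relative to 7wkWT across 2 tables that were normalized separately. The 7wkKO values of the 9 genes were 0.748% to 0.792% higher in the later table, close to the median of 0.779% over 11513 genes, so the shift between tables was small and even. The summed value for Ppp2r3a was -0.55 on the log2 scale (a change of -31.9%, combined implied error 0.36). That error was combined as if the 2 folds were independent. Both hold the same 7wkKO samples, so it is not the error of a direct comparison of 9wkKO with 7wkWT. For the other 8 genes it lay between -0.13 for Ppp2r2d and 0.16 for Ppp2r5e. No deposited test covers these levels, and they differ in age as well as genotype.

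The genes most like Ppp2r3a over the 3 groups were taken as those nearest in the 2 log2 folds, among 3211 other genes at 20 FPKM or more in every group. They were Mxd4 at a distance of 0.018, a gene for a MAX-binding repressor, Klf9 at 0.025, a glucocorticoid-induced transcription factor gene, and Art1 at 0.037, an ADP-ribosyltransferase gene expressed in muscle. Mxd4 had 47.4 FPKM in 9wkKO and 63.2 FPKM in 7wkKO (log2 fold -0.42, q = 0.0531 in the authors' deposited table). In all, 6 genes lay within 0.1 of Ppp2r3a. This is a description of 2 folds that share the 7wkKO samples.

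Of 8 tested genes for scaffold, catalytic, striatin and further B subunits the deposited Cuffdiff test called 0 in each comparison. Of all tested genes it called 2.37% at 7 weeks and 4.66% later, and 11.3% and 12.9% had an unadjusted p below 0.05. Among the 8 genes the unadjusted p was below 0.05 for 1, the same in each comparison, which was Strn, a striatin gene. It had 7.62 FPKM in 7wkKO and 5.48 FPKM in 7wkWT (log2 fold 0.48, error 0.28, q = 0.0784 in the authors' deposited table), a larger fold than that of any of the 9 genes at 7 weeks. Later the authors' deposited table had it at 6.23 FPKM in 9wkKO and 7.68 FPKM in 7wkKO, a log2 fold of -0.30, opposite in sign (error 0.26, q = 0.355). The list's median log2 folds were -0.05 at 7 weeks and 0.02 later. The most abundant were Ppp2ca, the alpha catalytic subunit, at 131 FPKM in 7wkKO and 121 FPKM in 7wkWT (q = 0.901 in the authors' deposited table), and Ppp2r1a, the alpha scaffold, at 103 and 109 FPKM in the same groups (q = 0.947). In 9wkKO and 7wkKO, Ppp2ca had 138 and 132 FPKM (q = 0.972 in the authors' deposited table) and Ppp2r1a 102 and 103 FPKM (q = 0.997). The modifiers and inhibitors had 0 calls and 0 unadjusted p-values below 0.05 among 13 tested genes in each comparison by the Cuffdiff test, with medians of -0.03 and -0.0037. Their most abundant members were Bod1 and Anp32a, with 98.5 and 88.1 FPKM in 7wkKO and 101 and 97.0 FPKM in 7wkWT in the authors' deposited table.

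Of 14 tested genes for cardiac targets and anchors of PP2A, 1 was called higher at 7 weeks and 0 lower, where 1.67% of all tested genes were called higher and 0.701% lower. It was Akap6, which encodes the perinuclear anchor mAKAP, at 18.8 FPKM in 7wkKO and 12.6 FPKM in 7wkWT (log2 fold 0.58, error 0.26, q = 0.0124 in the authors' deposited table, with an unadjusted p of 0.0246 from the statistic). The list's median log2 fold was 0.22 at 7 weeks. Of the 14, 10 lay above 0, where 50.1% of all tested genes lay below 0. An unadjusted deposited p under 0.05 was listed for 4 of the 14, and for 11.3% of all tested genes. From 7 to 9 weeks 0 of 14 were called by the deposited Cuffdiff test (1.89% of all tested genes called higher and 2.76% lower). In that comparison 4 had an unadjusted deposited p under 0.05, where 12.9% of all tested genes did, and the median was -0.14. The most abundant members were Tnni3, cardiac troponin I, at 7710 FPKM in 7wkKO and 9771 FPKM in 7wkWT (q = 0.732 in the authors' deposited table), and Pln, phospholamban, at 2473 and 2445 FPKM (q = 0.994).

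Egfr itself was not lower in the samples labelled KO. It was listed at 1.64 FPKM in 7wkKO and 1.20 FPKM in 7wkWT in the authors' deposited table (log2 fold of 0.46 and q = 0.379), and at 1.59 FPKM in 9wkKO against 1.65 FPKM in 7wkKO (q = 0.991). Gene-wide FPKM cannot test for a deletion whose extent is unknown. All 8 cardiomyocyte markers were abundant, and 0 were called in either comparison. Their summed level was 54271 FPKM in 7wkKO and 60188 FPKM in 7wkWT. Myl2 was the largest part of that sum, at 21145 and 24956 FPKM in these groups. At 7 weeks 5 of the 8 had a log2 fold above 0 and 3 below, with a median of 0.04. Atrial muscle markers moved strongly between the groups. Of 7 tested, 6 were called higher at 7 weeks (summed level 3012 FPKM in 7wkKO and 750 FPKM in 7wkWT) and 7 lower from 7 to 9 weeks (842 FPKM in 9wkKO and 3031 FPKM in 7wkKO), while Bmp10 was listed at 0 throughout. Nppa made up most of each sum, at 2314 FPKM in 7wkKO, 416 FPKM in 7wkWT and 767 FPKM in 9wkKO. Myl7, the next most abundant, had 343, 164 and 32.5 FPKM in these groups. The sums therefore do not stand for the levels of the other markers. Endothelial markers had 0 of 6 called at 7 weeks (338 FPKM in 7wkKO and 427 FPKM in 7wkWT) and 3 of 6 called higher later (480 FPKM in 9wkKO and 341 FPKM in 7wkKO). At 7 weeks all 6 lay below 0, and 4 had an unadjusted deposited Cuffdiff p under 0.05, where 11.3% of all tested genes did. Later all 6 lay above 0, and all 6 had such a p, where 12.9% of all tested genes did. Of 6 fibroblast markers 1 was called lower later, and macrophage and smooth muscle markers had 0 called in either comparison. Of all tested genes 1.67% were called higher and 0.701% lower at 7 weeks, and 1.89% and 2.76% later. The part of these cell types in the Ppp2r3a values was not tested. In such bulk samples fewer cells of a type and less RNA per cell cannot be told apart.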

How the data were processed

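The labels' protocols describe stranded libraries of poly(A) RNA. TopHat2, Cuffdiff and mm10 are named in the submitters' processing notes, with no versions. Each of the 4 tables the authors deposited gives, per the file headers, 1 FPKM value per group with a p-value, a q-value and the test statistic, a score, for each gene or isoform. The libraries' depth is unknown, and no value per sample was used. The labels do not say whether the 3 samples of a group were separate animals, so the deposited p-values may measure technical spread.

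Log2 folds were recomputed from FPKM with no pseudocount, because some deposited fold cells held no number. The implied error is the fold divided by the statistic or, where the p is named, by the normal deviate of the deposited p. File starts were raised by 1. Isoforms were matched by RefSeq identifier to GENCODE M21 (GRCm38), and promoters are from RefSeq (GRCm38.p6). Levels named are the 9 members, their isoforms, Egfr, the 2 most abundant and all called genes of 3 PP2A lists, and the 3 genes nearest to Ppp2r3a. Strn was named beyond this rule after its values were seen. Levels of Psma6, Tmem206, Gpha2, Myl2, Nppa, Myl7 and Bmp10 were also given beyond this rule. Members and lists were chosen with earlier results of these data known. The motifs, the comparison of loci and the share background were also chosen after the data were seen. The calculations of folds, errors and adjusted p-values were run on simulated data with normal errors of the assumed size, which checks the code alone. Isoform shares were not simulated. Figures were drawn with Matplotlib 3.10.9, and values computed with pandas 2.3.3, SciPy 1.17.1 and NumPy 2.4.6 under Python 3.11.15.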

Additional observations from a re-analysis of the deposited data

How the results depend on the processing

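A threshold of 0.1 on the deposited q gave 1 called B subunit gene from 7 to 9 weeks, Ppp2r3a, and 0 at 7 weeks (6.0% and 3.59% of all tested genes). Thresholds of 0.01, an adjustment recomputed over all tested genes or over genes at 1 FPKM or more, p taken from the statistic, and isoform calls each gave 0 in both comparisons. Of 87 alternatives in all, 86 kept their side of the threshold. Values without a test moved by less than their error, or by less than 1 percentage point for shares. Of the 87, 60 were on other members and isoforms. The alternatives included a pseudocount of 1 FPKM, subtraction of the median fold and sums of isoforms. The pseudocount and the subtraction kept the deposited Cuffdiff q. For Ppp2r3a at 7 weeks it was 0.833 at log2 folds of -0.149 and -0.151. Sums of isoforms restate the gene level (-0.151 for the same fold). The p from the statistic was larger than the deposited p for each member, so it cannot add a call. Many of the 86 outcomes were thus fixed in advance, and their count does not measure robustness. No paired analysis was possible because the tables hold 1 value per group. Leaving out single replicates was not possible for the same reason. Precision depends on the reading: for Ppp2r5a at 7 weeks the 95% interval of the log2 fold was -0.63 to 0.39 from the statistic and -0.41 to 0.17 from the deposited p.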
